A study of Mus musculus with 18 samples.

Results

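Interferon-stimulated genes are the genes that cells switch on when interferon binds its receptors. Here 44 of them, chosen by symbol and with earlier results of these data known, are described in murine renal proximal tubular epithelial cells (RPTEC). All 44 were found among the 36528 genes in the files, and 33 had enough reads to be tested. The cells were primary RPTEC of C57BL/6 mice from a commercial supplier, and every culture was collected at 6 h or at 24 h. At each time 3 samples received vehicle (DMSO), 3 received TWEAK, a cytokine of the tumor necrosis factor superfamily, at 100 ng/mL, and 3 received the same dose of TWEAK with 3 μM NIK SMI1, a small molecule inhibitor of the kinase NIK. This gave 6 groups and 18 samples. No group received NIK SMI1 without TWEAK, so the inhibitor was measured only on top of TWEAK. The labels name no separate animals or cultures for the 3 samples of a group, so the p-values measure the spread between these samples, which may be technical.

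Type I, II and III interferons signal through receptor-bound JAK kinases to STAT proteins, and a complex of STAT proteins with IRF9 binds a DNA element called the interferon-stimulated response element (ISRE). The products of the induced genes detect viral RNA, block entry, translation or release of viruses, and attach the ubiquitin-like protein ISG15 to other proteins. TWEAK signals through its receptor Fn14 to both arms of NF-κB, and NIK is the kinase that drives the non-canonical arm. Factors of the IRF and NF-κB families can bind near each other in promoters, and several interferon-stimulated genes are known to respond to viral RNA or to cytokines without interferon.

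Promoter windows were available from RefSeq (GRCm38.p6, 250 bases before to 50 after the annotated start) for 33 of the 44 genes. An ISRE core, GAAANNGAAA on either strand, was in the window of 15 of these 33 genes (45.5%), against 3.99% of the 27025 genes with a window. A κB motif, GGGNNNTTCC on either strand, was found in 5 of 33 (15.2%), against 6.31% of all genes. A GAS motif, TTCNNNGAA, which reads the same on both strands and can overlap either of the others, was found in 7 of 33 (21.2%), against 9.55% of all genes. Such a match is a description of letters and not a shown binding site. Of the 11 genes with a window that were higher with TWEAK at one or both times, 5 held an ISRE core (Ifih1, Ddx58, Rsad2, Bst2 and Ifitm3). Of the 7 that were lower, 2 held one (Ifit3 and Trim21), and of the 10 tested genes that passed at neither time 3 held one (Isg15, Ifit1 and Eif2ak2). All 5 genes with a window that had too few reads to test held one (Ddx60, Oas1a, Oas1g, Oas3 and Trim30a). Bst2 and Ifitm3, both higher with TWEAK, were the members that held an ISRE core and a κB motif among the tested genes.

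The windows of 7 genes are printed as examples: 4 that were higher with TWEAK, 1 that was lower, and 2 that passed at neither time. Those 2 had the highest level among the tested genes that passed at neither time. Every changed gene printed holds an ISRE core, so the printed windows are not typical of the changed genes. Only 5 of the 11 higher and 2 of the 7 lower genes with a window hold one. Lgals3bp and Dtx3l, also higher with TWEAK, hold neither motif and are not printed. Each runs 5′ to 3′ on the strand of its gene, and capitals mark ISRE cores and κB motifs.
Ifitm3 promoter, chr7:141010695-141010994 (GRCm38.p6, minus strand): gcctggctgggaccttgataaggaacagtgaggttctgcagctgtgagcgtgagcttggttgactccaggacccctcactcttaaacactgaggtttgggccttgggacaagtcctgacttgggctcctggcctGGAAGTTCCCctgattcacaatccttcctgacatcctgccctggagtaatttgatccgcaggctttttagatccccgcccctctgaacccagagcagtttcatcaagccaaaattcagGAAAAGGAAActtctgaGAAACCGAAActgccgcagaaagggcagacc
Bst2 promoter, chr8:71537423-71537722 (GRCm38.p6, minus strand): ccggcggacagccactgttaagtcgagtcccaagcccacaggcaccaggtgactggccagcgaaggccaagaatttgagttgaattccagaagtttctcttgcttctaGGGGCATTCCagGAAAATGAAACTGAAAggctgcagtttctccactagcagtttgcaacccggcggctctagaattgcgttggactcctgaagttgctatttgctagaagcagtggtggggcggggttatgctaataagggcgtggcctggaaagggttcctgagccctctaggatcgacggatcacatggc
Ddx58 promoter, chr4:40239776-40240075 (GRCm38.p6, minus strand): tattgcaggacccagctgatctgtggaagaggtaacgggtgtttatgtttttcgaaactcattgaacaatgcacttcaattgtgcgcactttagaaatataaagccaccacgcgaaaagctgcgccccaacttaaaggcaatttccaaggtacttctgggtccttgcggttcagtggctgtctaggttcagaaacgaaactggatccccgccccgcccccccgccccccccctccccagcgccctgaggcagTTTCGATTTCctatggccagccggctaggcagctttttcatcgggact
Rsad2 promoter, chr12:26456403-26456702 (GRCm38.p6, minus strand): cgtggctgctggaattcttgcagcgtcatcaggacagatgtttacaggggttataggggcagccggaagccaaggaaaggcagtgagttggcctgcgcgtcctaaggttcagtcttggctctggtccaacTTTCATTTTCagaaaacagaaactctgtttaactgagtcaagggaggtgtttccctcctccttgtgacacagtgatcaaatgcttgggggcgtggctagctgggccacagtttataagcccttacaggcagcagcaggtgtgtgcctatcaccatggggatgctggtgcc
Ifit3 promoter, chr19:34583279-34583578 (GRCm38.p6, plus strand): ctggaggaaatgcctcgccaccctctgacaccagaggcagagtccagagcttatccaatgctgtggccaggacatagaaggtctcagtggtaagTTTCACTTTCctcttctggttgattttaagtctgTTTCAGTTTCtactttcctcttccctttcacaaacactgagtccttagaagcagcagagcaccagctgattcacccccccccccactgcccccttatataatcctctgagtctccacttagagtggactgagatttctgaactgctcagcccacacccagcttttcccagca
Eif2ak2 promoter, chr17:78882523-78882822 (GRCm38.p6, minus strand): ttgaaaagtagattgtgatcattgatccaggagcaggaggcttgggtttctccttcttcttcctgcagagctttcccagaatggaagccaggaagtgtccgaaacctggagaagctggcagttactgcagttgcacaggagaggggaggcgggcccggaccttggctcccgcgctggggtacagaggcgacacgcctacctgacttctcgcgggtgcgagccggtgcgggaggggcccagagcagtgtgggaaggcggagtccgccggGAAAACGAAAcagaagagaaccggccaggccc
Ifi35 promoter, chr11:101448162-101448461 (GRCm38.p6, plus strand): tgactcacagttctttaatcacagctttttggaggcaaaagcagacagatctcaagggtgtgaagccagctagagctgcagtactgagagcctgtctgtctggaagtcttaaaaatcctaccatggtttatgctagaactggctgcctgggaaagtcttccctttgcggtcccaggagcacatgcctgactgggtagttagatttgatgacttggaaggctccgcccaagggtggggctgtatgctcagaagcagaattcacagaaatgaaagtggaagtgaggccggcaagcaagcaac
The κB motif of Ifitm3 lies upstream of the start and both of its ISRE cores lie just downstream of it, while in Bst2 the κB motif lies just upstream of 2 overlapping ISRE cores. The single ISRE core of Ddx58 and that of Eif2ak2 lie just after the start. The window of Ifi35 holds neither motif.

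**Figure D1:**
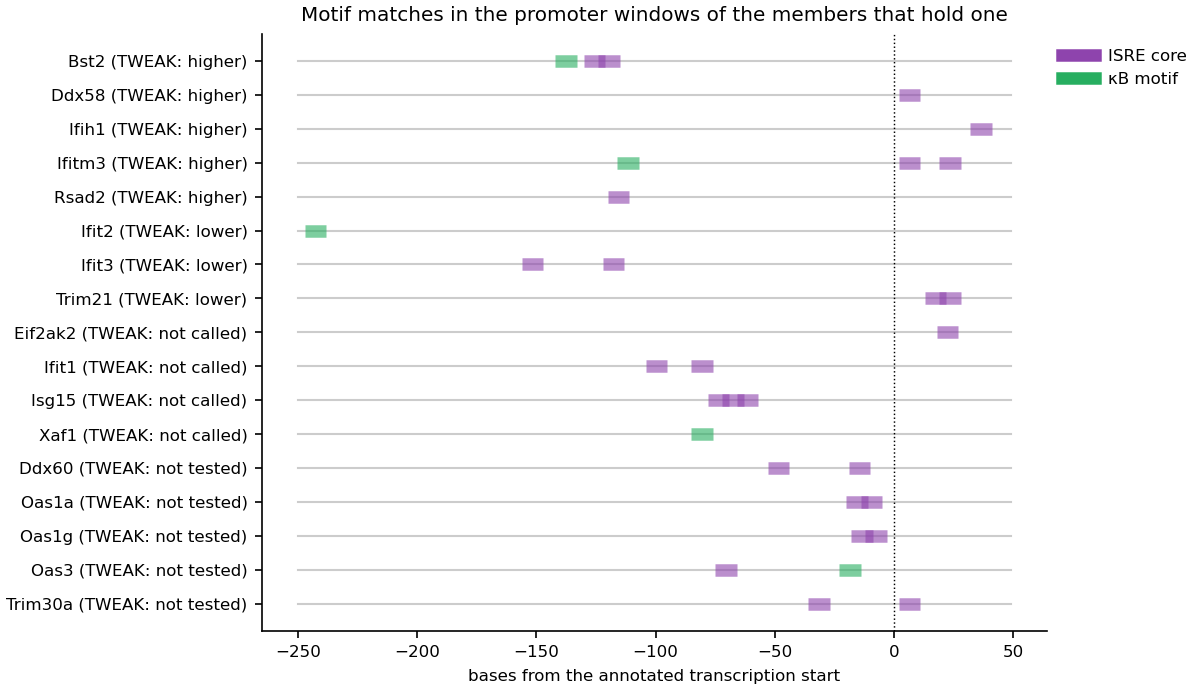
Position of ISRE cores (purple) and κB motifs (green) in the promoter windows of the members that hold at least 1, in bases from the annotated start, with the outcome for TWEAK against vehicle in brackets. Matches stand both in genes that were higher with TWEAK and in genes that were lower, passed at neither time or had too few reads to test.

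The samples held 18040966 to 51956444 reads within genes (median 35374254), and 3 reads correspond to 0.05774 to 0.16629 CPM, the count of a gene scaled to the total of its library. The TWEAK response itself was present, with Nfkb2 at 146 ± 5.81 CPM in vehicle and 541 ± 18.4 CPM in TWEAK samples at 6 h (SD, n = 3). Summed epithelial markers lay between 8181 and 10806 CPM, but summed proximal tubule markers reached only 9.14 to 13 CPM. Of these, the transporter Slc5a2 and Cubn had more than 10 reads in all 18 samples, with at most 402 and 186 reads. Lrp2 had more than 10 reads in 5 samples and Aqp1 in 3. The transporters Slc34a1 and Slc22a6 had at most 1 read in any sample. Leukocyte markers summed to 11.6 to 14.7 CPM, mostly from Cd68, with Ptprc at 0 to 11 reads a sample and Cd3e at 0. Endothelial markers summed to 0.195 to 0.717 CPM and fibroblast and pericyte markers to 9.67 to 14 CPM. RNA of Y-linked genes (56.3 to 74.2 CPM) and Xist (107 to 153 CPM) was in every sample. Reads of pancreatic islet genes set 4 samples apart: they summed to 4.42 to 31.2 CPM in the other 14 samples, but to 0.2354 CPM in TWEAK replicate 2 at 24 h and to 0.0451 to 0.087 CPM in the 3 samples with TWEAK and NIK SMI1 at 24 h. For NIK SMI1 against TWEAK at 24 h the values are therefore also given against TWEAK replicate 2 alone. The other results of 24 h rest partly on these 4 samples, and the part of the islet reads in them was not tested. In bulk RNA, fewer cells of a type and less RNA per cell cannot be told apart.

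In these cells the interferon-stimulated genes were unevenly expressed. On the RPKM scale, which divides reads by exonic length, 9 of the 44 genes had a median above 6.74, the median of the tested genes. The highest was Bst2 (tetherin, which holds budding virions at the cell surface), with a median of 50.3 RPKM over the 18 samples and a range of 39.1 to 79. Samd9l, an antiviral restriction factor, followed at 36.2 RPKM (31.4 to 47.7) and Ifitm3, which blocks virus entry from endosomes, at 28.6 RPKM (16.9 to 60.2). The ranges of these 3 genes overlapped. Ifi35 (19.3 RPKM), Trim25 (15 RPKM), the RNA-editing enzyme Adar (12.7 RPKM) and the translation-blocking kinase Eif2ak2 (PKR, 10 RPKM) came next.

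Several genes often used to read an interferon response were low or near absent. Isg15, the ubiquitin-like modifier, had a median of 0.621 RPKM, and Ifit1, which binds viral RNA caps, had 0.0721 RPKM with 1 to 17 reads a sample. The 11 genes that were not tested had 421 reads together over all samples, of 626048357, and at most 16 reads in a sample. They were the GTPases Mx1 and Mx2, of which Mx1 is disrupted in C57BL/6 and most inbred mice, 5 of the 7 members of the OAS family (Oas1a, Oas1b, Oas1g, Oas2 and Oas3, a family whose active enzymes make the activator of RNase L), the sensors Ddx60 and Zbp1, and Trim30a and Rtp4. Oas1g had 0 reads in every sample and Oas2 had 1 read in all. Members of the OAS family have near-identical copies, and since only uniquely aligned reads were counted, their counts are uncertain. Of the 33 tested genes, 25 had more than 10 reads in all 18 samples.

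**Figure D2:**
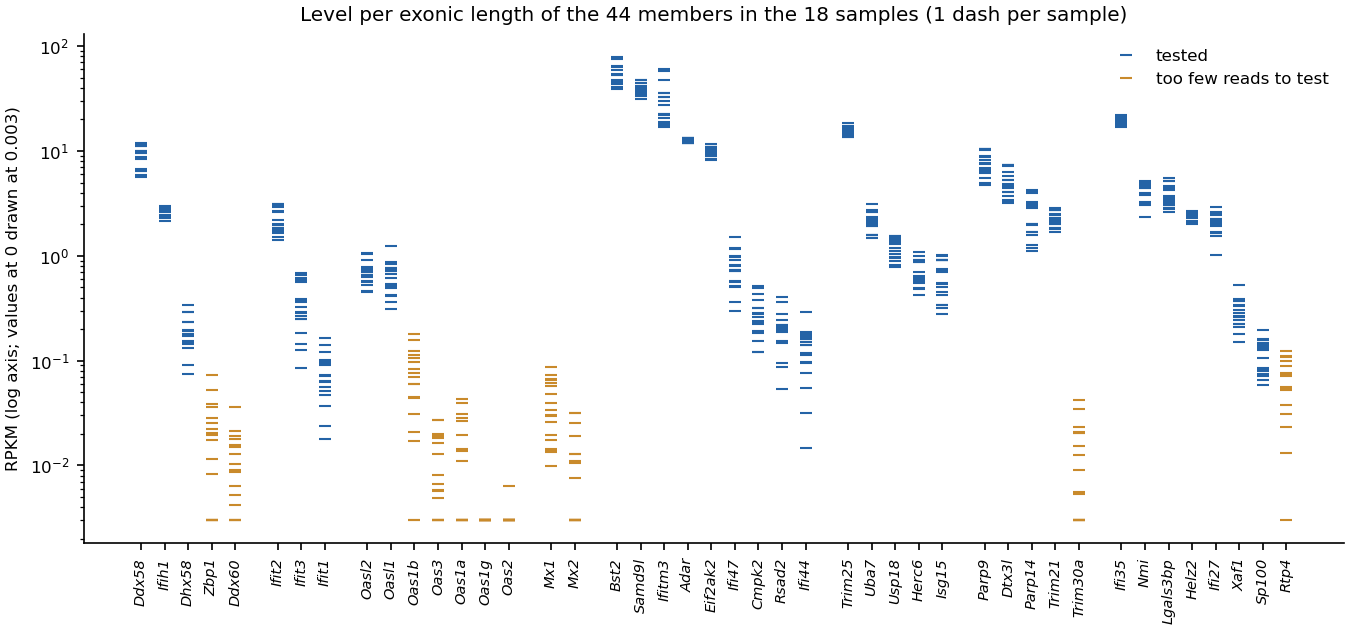
Level of each of the 44 genes in RPKM (log axis) in the 18 samples, 1 dash per sample, grouped by role, with values at 0 drawn at 0.003. Bst2, Samd9l and Ifitm3 lie highest with medians of 50.3, 36.2 and 28.6 RPKM, and most untested genes (orange) lie below 0.1 RPKM.

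The interferon ligand genes themselves had almost no counted reads. The 20 interferon genes listed had 14 reads in all samples together, at most 3 in a sample, and 15 of them had 0. Ifnb1 had 0 reads in the 9 samples of 6 h and at most 3 reads in any sample of 24 h. At these depths only levels above that of a few reads could have been seen. Only uniquely aligned reads were counted, so any reads shared between similar interferon genes, such as the Ifna genes, would be missing from these counts.

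TWEAK was compared with vehicle to find which of these genes it changed early and late. The genes moved in both directions. Since they were chosen with earlier results of these data known, their shares beside those of all tested genes are descriptions only. At 6 h 12 of the 33 tested genes (36.4%) were higher with TWEAK, against 11.7% of all 15521 genes tested. A further 5 (15.2%) were lower, against 12%. At 24 h 10 (30.3%) were higher, against 18.3%, and 7 (21.2%) were lower, against 20.7%. The shares that were lower thus lay near those of all tested genes at both times. Over the 33 genes the log2 fold change had a median of 0.20 at 6 h and 0.06 at 24 h, beside 0.00 and -0.01 over all tested genes. Above 2-fold higher were 3 genes at 6 h (Parp14, Rsad2 and Ddx58, background 1.75%) and 2 at 24 h (Ifitm3 and Parp14, background 2.34%). Counting both times, 13 genes were higher at one or both, 7 were lower at one or both, and 13 passed at neither. With TWEAK replicate 2 of 24 h, which was low in islet reads, left out, the count at 24 h stayed within the 16 to 17 genes that leaving out any one sample gave.

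Among the sensors, Ddx58 (RIG-I, which detects viral RNA ends) was higher. It measured 29.0, 30.6 and 30.1 CPM in the vehicle samples at 6 h and 60.4, 57.2 and 60.8 CPM with TWEAK. At 24 h it measured 34.9, 33.5 and 33.1 CPM with vehicle and 49.6, 52.4 and 57.4 CPM with TWEAK. The groups did not overlap at either time, and the log2 fold change was 1.0 ± 0.06 (SE, adjusted p = 1.36e-13) at 6 h and 0.65 ± 0.06 (adjusted p = 1.02e-09) at 24 h. The related sensor Ifih1 (MDA5) rose by 1.15-fold at 6 h (adjusted p = 0.0329), a call that was lost in the fit of that time point alone and without vehicle replicate 2 or 3 or TWEAK replicate 2 or 3 (highest adjusted p = 0.253, lowest log2 fold change 0.12 beside 0.20). Its regulator Dhx58 (LGP2) passed at neither time.

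Among the ubiquitin and ADP-ribosylation genes, 3 neighboring genes were higher at both times. Parp14, a mono-ADP-ribosyltransferase, measured 13.4, 12.7 and 12.2 CPM with vehicle and 34.4, 31.4 and 32.5 CPM with TWEAK at 6 h, and 16.9, 18.2 and 18 CPM against 42.5, 43.9 and 46.0 CPM at 24 h. Its TWEAK samples were all above the vehicle samples, with log2 fold changes of 1.38 ± 0.06 (adjusted p = 2.83e-16) and 1.33 ± 0.06 (adjusted p = 2.92e-16). Parp9 and Dtx3l encode an ADP-ribosyltransferase and an E3 ubiquitin ligase that work as a complex. Parp9 measured 19.6, 20.0 and 19.3 CPM with vehicle and 33.3, 31.6 and 30.3 CPM with TWEAK at 6 h, and 26.0, 28.3 and 27.6 CPM against 41.9, 42.7 and 42.7 CPM at 24 h (log2 fold changes of 0.71 ± 0.06 and 0.65 ± 0.06). Dtx3l measured 18.3, 17.3 and 18.2 CPM with vehicle and 28.6, 25.9 and 28.4 CPM with TWEAK at 6 h, and 24.2, 24.4 and 26.0 CPM against 39.6, 38.9 and 39.7 CPM at 24 h (0.63 ± 0.07 and 0.67 ± 0.07). For both genes the TWEAK and vehicle samples of a time did not overlap. The exons of Parp9 and Dtx3l share 458 bases on opposite strands in the GENCODE M21 annotation, and in an unstranded library reads from these bases cannot be assigned to a strand. Shared exonic bases also concern Adar (1365 with Chrnb2), Ifi35 (290 with Gm11626), Ifi47 (111 with Olfr56), Parp14 (110 with Gm49730) and Oasl1 (38 with Gm13822).

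Trim21, an antibody receptor and E3 ligase inside the cell, was 1.27-fold lower at 24 h (adjusted p = 0.0179), a call lost without vehicle replicate 3 or TWEAK replicate 1 or 3 (highest adjusted p = 0.0901).

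Among the effectors that act on the virus, Ifitm3 had the largest rise at 24 h. At 6 h it measured 11.3, 14.9 and 11.9 CPM with vehicle and 22.0, 20.4 and 21.8 CPM with TWEAK. At 24 h it measured 12.8, 12.1 and 15.2 CPM with vehicle and 39.2, 40.5 and 40.7 CPM with TWEAK. All TWEAK samples were above all vehicle samples, and the log2 fold change was 0.76 ± 0.10 (adjusted p = 1.47e-06) at 6 h and 1.60 ± 0.10 (adjusted p = 1.13e-12) at 24 h.

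Bst2 likewise rose more at the later time. It measured 32.5, 34.9 and 31.7 CPM with vehicle and 43.3, 43.2 and 43.4 CPM with TWEAK at 6 h, and 37, 37.3 and 37.6 CPM against 63.5, 62.9 and 60.6 CPM at 24 h. The groups did not overlap, with log2 fold changes of 0.40 ± 0.04 and 0.74 ± 0.04 (adjusted p = 3.42e-08 and 1.6e-13).

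Rsad2 (viperin, which makes a chain-terminating nucleotide) was low but higher with TWEAK. It measured 0.259, 0.454 and 0.423 CPM with vehicle and 0.977, 0.755 and 1.06 CPM with TWEAK at 6 h, and 0.912, 0.71 and 0.976 CPM against 1.19, 1.97 and 1.77 CPM at 24 h. Both pairs of groups were separate, with log2 fold changes of 1.25 ± 0.28 (adjusted p = 0.00102) and 0.95 ± 0.24 (adjusted p = 0.00244), and the level over all samples rested on 8 to 92 reads each. Ifi47, an immunity-related GTPase, measured 0.616, 1.5 and 1.06 CPM with vehicle and 1.52, 1.53 and 2.51 CPM with TWEAK at 6 h (log2 fold change 0.79 ± 0.25, adjusted p = 0.0207). That call was lost without vehicle replicate 1 or 3 or TWEAK replicate 3 (highest adjusted p = 0.19, lowest log2 fold change 0.52), and at 24 h the log2 fold change was 0.44 ± 0.24 (adjusted p = 0.165). Adar was 1.09-fold higher at 6 h (adjusted p = 0.0258), a call lost in the fit of that time point alone and without vehicle replicate 2 or TWEAK replicate 2 or 3 (highest adjusted p = 0.127).

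Other genes that rose were Lgals3bp, a secreted glycoprotein that binds galectin-3, and Nmi, a partner of STAT proteins. Lgals3bp measured 6.25, 7.72 and 6.93 CPM with vehicle and 8.47, 10.2 and 9.69 CPM with TWEAK at 6 h, and 7.32, 6.54 and 6.98 CPM against 12.6, 11.8 and 11.9 CPM at 24 h. Its groups did not overlap, and the log2 fold change was 0.46 ± 0.12 at 6 h and 0.78 ± 0.13 at 24 h. Nmi rose by 1.32-fold at 6 h and by 1.28-fold at 24 h (adjusted p = 0.00275 and 0.00519). Helz2 was 1.19-fold higher at 24 h (adjusted p = 0.0142), a call lost without vehicle replicate 1 or 3 or TWEAK replicate 3 (highest adjusted p = 0.0791).

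**Figure D3:**
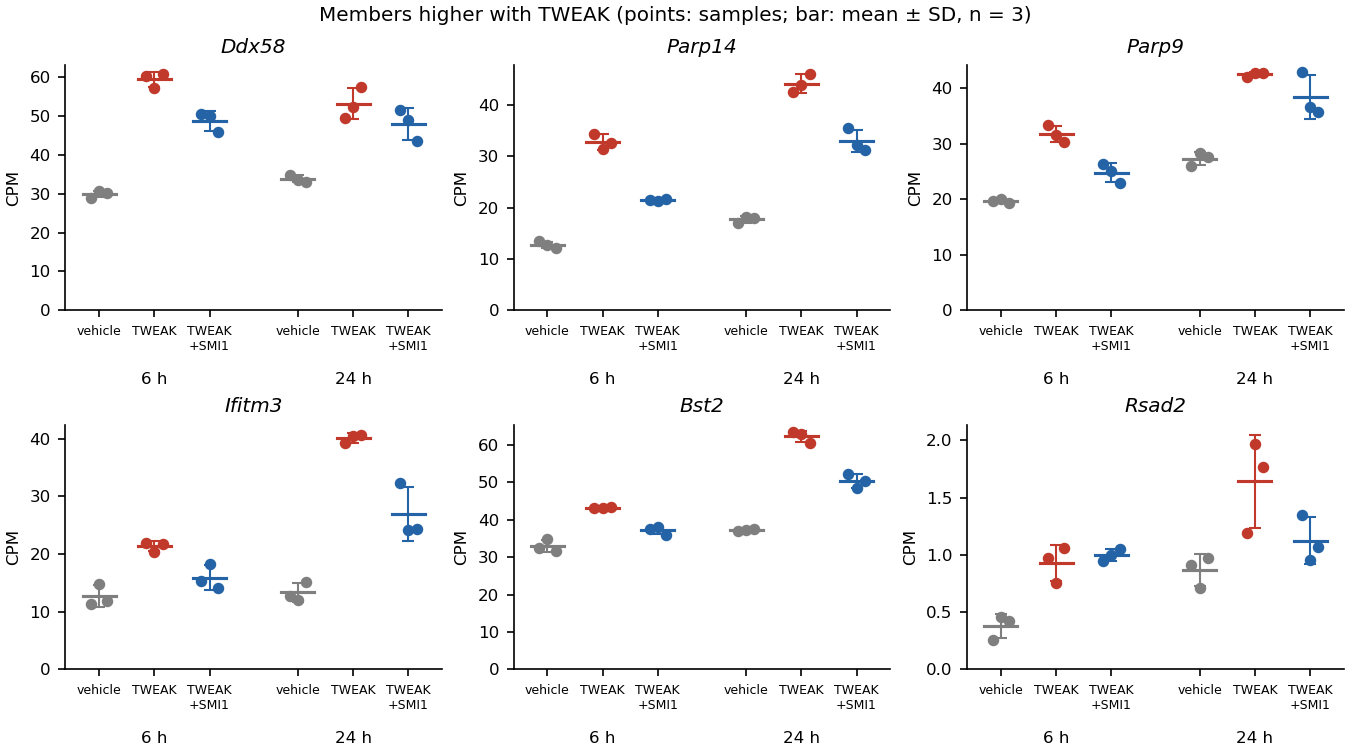
CPM of 6 genes that were higher with TWEAK, in each sample (points) with mean ± SD (n = 3), for vehicle (grey), TWEAK (red) and TWEAK with NIK SMI1 (blue) at 6 h and 24 h. Ifitm3 reached 39.2 to 40.7 CPM with TWEAK at 24 h, above its 24.1 to 32.3 CPM with NIK SMI1 and its 12.1 to 15.2 CPM with vehicle.

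The IFIT genes, whose products bind viral RNA, went the other way where they passed. Ifit2 measured 9.14, 8.47 and 10.3 CPM with vehicle and 6.95, 6.46 and 7.76 CPM with TWEAK at 6 h, and 14.5, 12.3 and 14.2 CPM against 8.02, 8.5 and 8.96 CPM at 24 h. All TWEAK samples lay below the vehicle samples of the same time, with log2 fold changes of -0.40 ± 0.09 (adjusted p = 0.00187) and -0.69 ± 0.09 (adjusted p = 7.98e-07). Ifit3 measured 1.36, 1.28 and 0.789 CPM with vehicle and 0.517, 0.676 and 0.555 CPM with TWEAK at 6 h, and 1.24, 1.42 and 1.17 CPM against 0.176, 0.3 and 0.598 CPM at 24 h. Its groups were separate at both times and it was 3.31-fold lower at 24 h (log2 fold change -1.73 ± 0.33, adjusted p = 0.000129), whereas the 1.87-fold difference at 6 h (adjusted p = 0.0235) was lost without vehicle replicate 1 or 2 or TWEAK replicate 1 or 3 (highest adjusted p = 0.0963). Ifit1 did not pass, with a log2 fold change of 0.79 ± 0.63 at 24 h (95% interval -0.51 to 2.10).

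In the OAS family, Oasl1, which lacks synthetase activity and restrains translation of Irf7, was lower. It measured 2.04, 1.98 and 1.73 CPM with vehicle and 0.862, 1.17 and 1.21 CPM with TWEAK at 6 h, and 1.59, 1.83 and 2.93 CPM against 1.28, 1.01 and 0.741 CPM at 24 h. The groups were separate, with log2 fold changes of -0.79 ± 0.22 (adjusted p = 0.00831, and 0.0517 without TWEAK replicate 1) and -1.07 ± 0.24 (adjusted p = 0.000711). Oasl2 passed at neither time.

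Samd9l had the most reads of the listed genes and showed a small decrease. It measured 234, 232 and 238 CPM with vehicle and 203, 201 and 197 CPM with TWEAK at 6 h, and 272, 254 and 271 CPM against 179, 193 and 194 CPM at 24 h. No TWEAK sample reached a vehicle sample, and the gene was 1.16-fold lower at 6 h and 1.41-fold lower at 24 h (adjusted p = 2.72e-05 and 7.11e-12). Ifi44 measured 0.889, 0.457 and 0.488 CPM with vehicle and 0.0441, 0.342 and 0.0956 CPM with TWEAK at 24 h. These groups were separate (log2 fold change -1.82 ± 0.48, adjusted p = 0.0033), but the value rested on as little as 1 read in a sample, was not called without vehicle replicate 1 (-1.34, adjusted p = 0.091) and reached -3.04 without TWEAK replicate 2. At 6 h its log2 fold change was -0.68 ± 0.42 (adjusted p = 0.279).

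**Figure D4:**
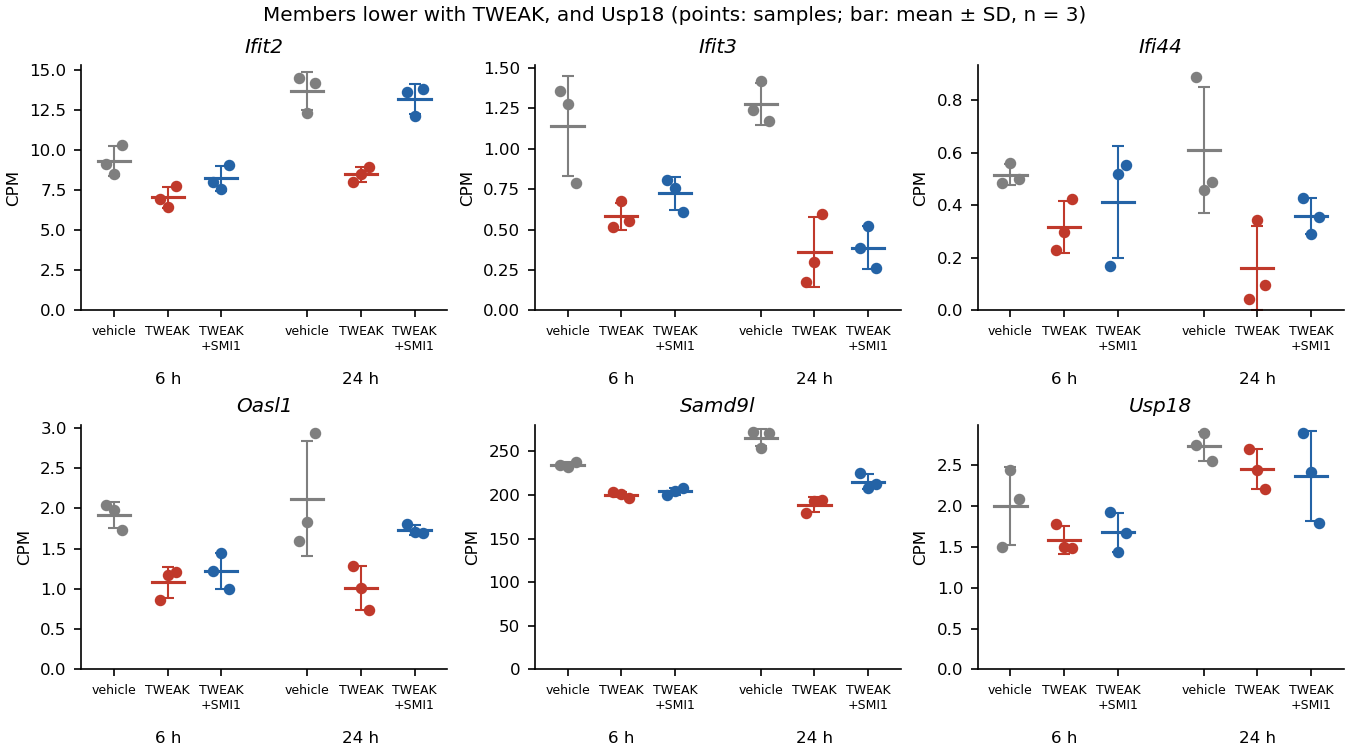
CPM of 5 genes that were lower with TWEAK and of Usp18, which passed at neither time, in each sample (points) with mean ± SD (n = 3), colors as for the higher genes. Samd9l fell from 254 to 272 CPM with vehicle to 179 to 194 CPM with TWEAK at 24 h, and Ifit2 lay at 12.1 to 13.8 CPM with NIK SMI1 at that time, beside 12.3 to 14.5 CPM with vehicle.

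In the ISG15 system 1 of 5 genes passed, and it was lower, a share near that of all tested genes at 24 h (20.7%). This was Trim25, an E3 ligase that also acts on RIG-I, at 1.18-fold lower at 24 h (adjusted p = 0.000299) and 1.09-fold lower at 6 h (adjusted p = 0.0484). The 6 h call of Trim25 was lost with another filter, in the fit of that time point alone and without vehicle replicate 1 or TWEAK replicate 1 or 2 (highest adjusted p = 0.301, log2 fold change -0.07 beside -0.13). Isg15 had log2 fold changes of 0.72 ± 0.40 (adjusted p = 0.218) and 0.52 ± 0.38 (adjusted p = 0.309), with overlapping groups at both times. Its 95% interval at 6 h, -0.10 to 1.53, leaves a rise of more than 2-fold within the range that these few reads allow. Usp18, which removes ISG15 and dampens the interferon receptor, had -0.17 ± 0.18 at 24 h (95% interval -0.55 to 0.20).

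The difference between the 24 h and the 6 h effect of TWEAK was tested for each gene. It was positive for 2 genes (Ifitm3 and Bst2, background 3.24%) and negative for 3 (Ddx58, Samd9l and Uba7, background 5.67%). The rise of Ifitm3 was larger at 24 h by 0.83 ± 0.15 on the log2 scale (adjusted p = 0.000334), and that of Ddx58 fell by 0.35 ± 0.08 on the same scale (adjusted p = 0.00638).

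NIK SMI1 with TWEAK was compared with TWEAK alone to see which of these genes the inhibitor changed. At 6 h 8 genes were lower with the inhibitor, against a background of 5.7%, and 0 were higher in edgeR, against 5.34% (1 at an unadjusted p below 0.05, and 0 in DESeq2). The 8 were Parp14, Nmi, Lgals3bp, Ifitm3, Dtx3l, Parp9, Ddx58 and Bst2, of which Parp14 was more than 1.5-fold lower (background 1.1%). At 24 h 5 (15.2%) were lower, against 8.29% (Ifi47, Ifitm3, Lgals3bp, Parp14 and Bst2). The 3 that were higher (Oasl1, Ifit2 and Samd9l) made up 9.09%, a share near the 10.2% of all tested genes. More than 1.5-fold lower at 24 h was Ifi47 (background 1.75%). Over the 33 genes the log2 fold change had a median of -0.10 at 6 h and -0.05 at 24 h, beside 0.00 and 0.01 over all tested genes. These comparisons use the same TWEAK samples as the comparisons with vehicle, so the values are set side by side and their directions are not independent.

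Parp14 with TWEAK and NIK SMI1 measured 21.5, 21.3 and 21.6 CPM at 6 h and 35.4, 32.2 and 31.2 CPM at 24 h. These samples lay below every TWEAK sample and above every vehicle sample of their time, with log2 fold changes against TWEAK of -0.61 ± 0.06 (adjusted p = 1.69e-08) and -0.43 ± 0.05 (adjusted p = 7.2e-07). Ddx58 measured 50.5, 50.1 and 45.8 CPM at 6 h and 51.6, 49 and 43.5 CPM at 24 h, also above vehicle. It was lower than with TWEAK alone at 6 h (-0.28 ± 0.06, adjusted p = 0.00103), while at 24 h the groups overlapped (-0.15 ± 0.06, adjusted p = 0.0635). Parp9 measured 26.4, 25.0 and 22.9 CPM at 6 h and 42.9, 36.6 and 35.7 CPM at 24 h, and Dtx3l 20.0, 22.1 and 22.2 CPM and 39.6, 34.0 and 31.0 CPM. Both were lower at 6 h (-0.35 ± 0.06 and -0.38 ± 0.07), whereas at 24 h each had 1 sample that reached the TWEAK level (adjusted p = 0.0882 and 0.0599).

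Ifitm3 with the inhibitor measured 15.3, 18.3 and 14.2 CPM at 6 h and 32.3, 24.1 and 24.3 CPM at 24 h. It lay below TWEAK at both times, with log2 fold changes of -0.42 ± 0.11 (adjusted p = 0.00819, and 0.0569 without inhibitor replicate 1) and -0.58 ± 0.09 (adjusted p = 3.57e-05). Bst2 measured 37.5, 38.0 and 36.0 CPM and then 52.2, 48.4 and 50.5 CPM, again between vehicle and TWEAK (-0.22 ± 0.04 and -0.31 ± 0.04). Lgals3bp measured 5.87, 8.14 and 7.48 CPM at 6 h and 10.5, 7.86 and 6.89 CPM at 24 h, below every TWEAK sample of the time (-0.44 ± 0.13 and -0.50 ± 0.12), although the first call was lost without TWEAK replicate 2 or 3 or inhibitor replicate 1 (highest adjusted p = 0.238, log2 fold change -0.28).

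Rsad2 measured 0.946, 0.998 and 1.05 CPM with the inhibitor at 6 h, within the range of its TWEAK samples. At 24 h it measured 1.35, 0.957 and 1.07 CPM, with a log2 fold change against TWEAK of -0.57 ± 0.22 (adjusted p = 0.0691). Ifi47 measured 1.2, 1.08 and 0.776 CPM at 6 h and 1.71, 1.54 and 1.17 CPM at 24 h. At 24 h its TWEAK samples, 3.17, 2.42 and 2.08 CPM, were all higher (-0.74 ± 0.24, adjusted p = 0.0273), and the call was lost without TWEAK replicate 1 or 2 or inhibitor replicate 2 or 3 (highest adjusted p = 0.128).

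Of the genes that TWEAK lowered, Ifit2 measured 7.99, 7.59 and 9.09 CPM with the inhibitor at 6 h and 13.6, 12.1 and 13.8 CPM at 24 h. The 24 h samples lay above every TWEAK sample (0.62 ± 0.09, adjusted p = 7.69e-06) and overlapped the vehicle samples. Oasl1 measured 1.22, 1.44 and 0.998 CPM at 6 h and 1.8, 1.71 and 1.69 CPM at 24 h, when it was above TWEAK (0.83 ± 0.23, adjusted p = 0.0118, lost without TWEAK replicate 3). Samd9l measured 200, 204 and 208 CPM and then 225, 208 and 213 CPM, of which the second set was above TWEAK (0.18 ± 0.04, adjusted p = 0.000316) and below vehicle. Ifit3 stayed apart from these, at 0.807, 0.759 and 0.61 CPM and then 0.384, 0.522 and 0.26 CPM, with a log2 fold change against TWEAK of 0.03 ± 0.38 at 24 h (95% interval -0.76 to 0.82). Ifi44 measured 0.429, 0.29 and 0.357 CPM at 24 h. Its log2 fold change of 0.96 ± 0.51 (adjusted p = 0.22) became 2.17 and passed without TWEAK replicate 2.

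At 24 h the inhibitor samples were nearly free of the islet reads that TWEAK replicates 1 and 3 contained. Against TWEAK replicate 2 alone, which was also low in them, a comparison chosen after seeing the data in which the lone sample is assumed to vary like the other groups, 5 genes passed: Ifit2 (0.64) and Samd9l (0.16) were higher, and Ifitm3 (-0.58), Parp14 (-0.41) and Bst2 (-0.32) were lower on the log2 scale. Ifi47 (-0.69, adjusted p = 0.2), Oasl1 (0.79, adjusted p = 0.125) and Lgals3bp (-0.47, adjusted p = 0.0829) did not pass. The count at 24 h also depended on 1 sample: without replicate 1 of TWEAK with NIK SMI1 it was 14, with 3 higher and 11 lower.

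The difference between the 24 h and the 6 h effect of NIK SMI1 passed for Herc6, the main E3 ligase for ISG15 in mice, in the positive direction (background 3.11%), and in the negative direction for 0 genes in edgeR (background 1.62%, 0 at an unadjusted p below 0.05, and 0 in DESeq2). Herc6 had a log2 fold change against TWEAK of -0.40 ± 0.16 at 6 h and 0.33 ± 0.13 at 24 h, of which neither passed (adjusted p = 0.107 and 0.0861).

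TWEAK with NIK SMI1 was also compared with vehicle. No group received NIK SMI1 alone, so what was left of the TWEAK effect and any effect of the inhibitor itself cannot be told apart. At 6 h 7 genes were higher than vehicle, against 7.23% of all genes, and Samd9l was lower, against 6.7%. The 7 were Rsad2 (log2 fold change 1.35), Parp14 (0.77), Ddx58 (0.72), Parp9 (0.35), Ifitm3 (0.34), Dtx3l (0.26) and Bst2 (0.18). At 24 h 6 were higher, against 8.07%: Ifitm3 (1.02), Parp14 (0.90), Parp9 (0.50), Ddx58 (0.50), Dtx3l (0.50) and Bst2 (0.43). Lower at 24 h were Ifit3 (-1.69), Oasl2 (-0.74), Samd9l (-0.31) and Trim25 (-0.17), a share of 12.1%, near the 9.83% of all genes. Of these, Oasl2 was not called for TWEAK alone against vehicle at 24 h (-0.34, adjusted p = 0.171 in edgeR). The call of Ifitm3 at 6 h (adjusted p = 0.0421) was lost in DESeq2 and without vehicle replicate 1 or 3 or inhibitor replicate 1 or 2 (highest adjusted p = 0.288). At 6 h Bst2 was not called without vehicle replicate 3 (adjusted p = 0.0641), nor Dtx3l without vehicle replicate 2 or inhibitor replicate 2 or 3 (highest adjusted p = 0.0984), and at 24 h Trim25 was not called without vehicle replicate 3 or inhibitor replicate 2 (highest adjusted p = 0.105). At 24 h the inhibitor samples held 2 to 3 islet reads each and the vehicle samples 305 to 896, so that this difference and the treatment cannot be told apart there.

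**Figure D5:**
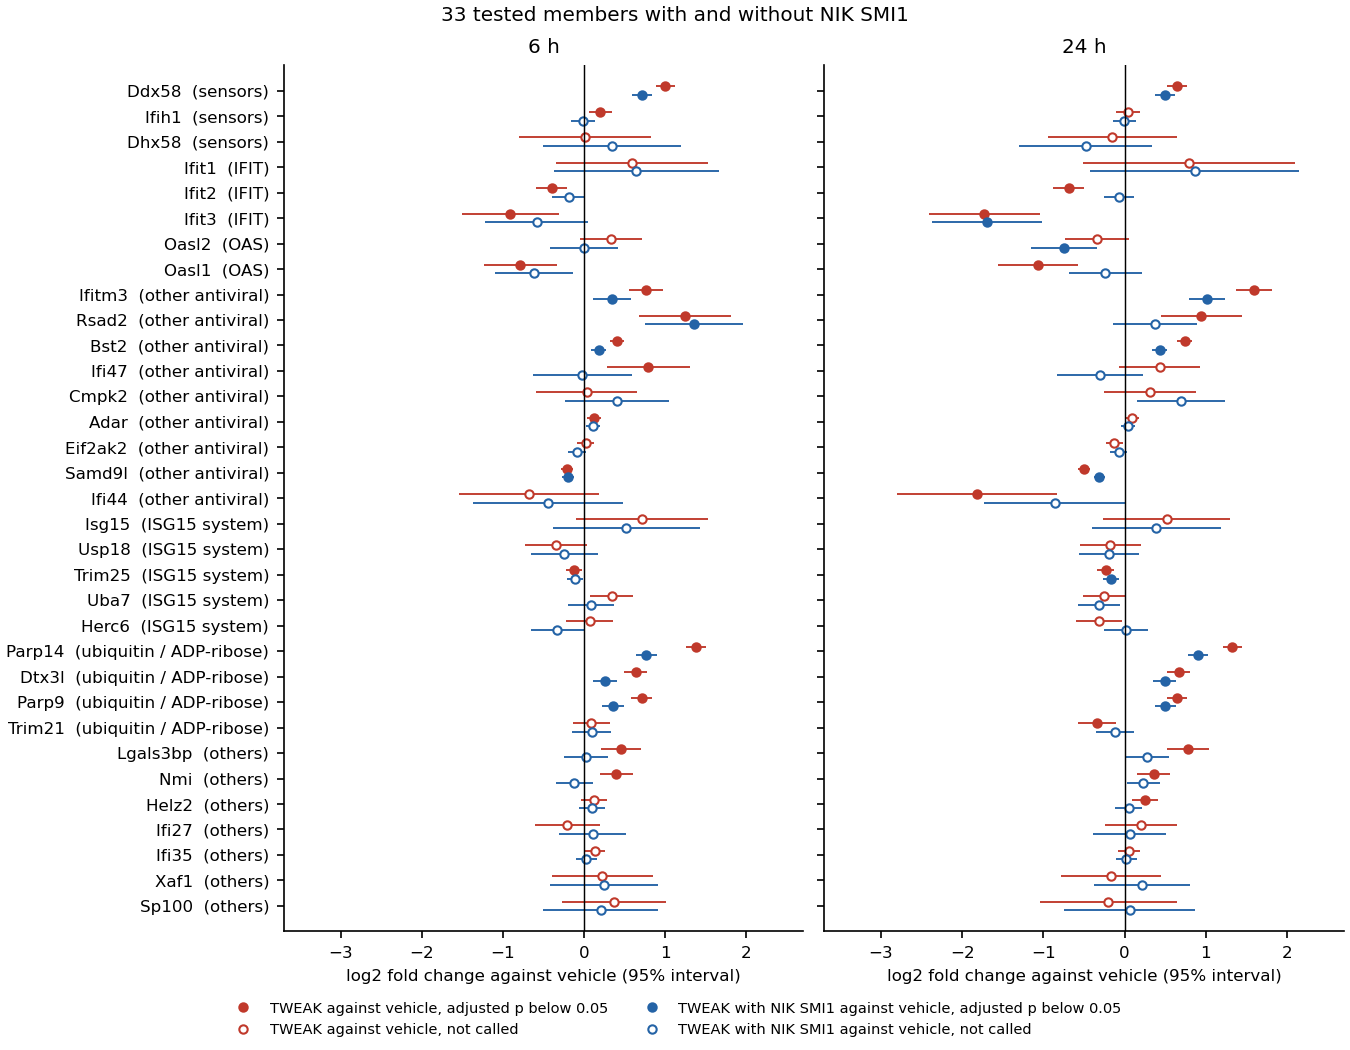
Log2 fold change against vehicle with 95% interval for the 33 tested genes, for TWEAK (red) and TWEAK with NIK SMI1 (blue) at 6 h and 24 h, with filled points where the adjusted p was below 0.05. Parp14 lay at 1.38 and 1.33 with TWEAK and at 0.77 and 0.90 with NIK SMI1, and Ifit3 at 24 h lay at -1.73 and -1.69.

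Time in culture also moved these genes. Between the vehicle samples of 24 h and 6 h, 13 genes were higher at 24 h, against 15.5% of all genes, and 0 were lower in edgeR, against 14.4% (2 at an unadjusted p below 0.05, and 0 in DESeq2). The 33 genes had a median log2 fold change of 0.22, beside 0.01 over all tested genes. Rsad2 (1.10 ± 0.30), Ifi47 (0.71 ± 0.27), Uba7, which activates ISG15 (0.69 ± 0.13), and Herc6 (0.60 ± 0.14) had the largest rises. Oasl2 (0.52), Ifit2 (0.49), Trim21 (0.44), Parp14 (0.41), Parp9 (0.40), Dtx3l (0.40), Eif2ak2 (0.21), Trim25 (0.13) and Samd9l (0.12) rose less. The call of Ifi47 was lost without any vehicle sample other than replicate 2 of 6 h (highest adjusted p = 0.172). That of Oasl2 was lost without replicate 1 or 3 of 6 h or replicate 2 or 3 of 24 h (0.169). That of Samd9l was lost without replicate 2 of 6 h or replicate 1 or 3 of 24 h (0.0833). That of Trim25 was lost without any but replicate 1 of 6 h, in DESeq2, and in edgeR with the size factors of DESeq2 (0.163). Time and collection cannot be told apart in this comparison.

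The other genes of the pathway were taken from a list of 42, of which 22 had enough reads to test. This list too was chosen with earlier results of these data known. With TWEAK 13 of the 22 were higher at 6 h (11.7% of all tested genes), and at 24 h 12 were higher (18.3%) and 2 lower (20.7%). All 6 receptor chains were higher at 6 h and 5 at 24 h. Ifngr2, a chain of the receptor for interferon gamma, had the largest rise among them, from 49.5 ± 2.63 to 98.4 ± 2.9 CPM at 6 h and from 45.4 ± 2.4 to 89.1 ± 2.43 CPM at 24 h (SD, n = 3). Among the kinases and transcription factors, on the log2 scale Tyk2 was higher by 0.67 at 6 h and by 0.50 at 24 h, and Irf1 by 0.51 and 0.53. Irf7, a factor that amplifies interferon production, fell by 0.62 ± 0.24 at 24 h (adjusted p = 0.0479). It had at most 82 reads in a sample. The alternative fits were not examined for the genes of this list, so whether this call would hold in them was not tested. Socs1, an inhibitor of JAK kinases, rose by 1.27 ± 0.13 and 1.52 ± 0.13. With NIK SMI1 against TWEAK, 10 of the 22 were lower at 6 h (5.7% of all tested genes), and at 24 h 9 were lower (8.29%) and 1 higher (10.2%), with Socs1 at -0.42 ± 0.12 and -0.86 ± 0.11 and Irf1 at -0.28 ± 0.05 and -0.39 ± 0.05.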

How the data were processed

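RNA-seq was available for 18 samples of murine RPTEC in 6 groups of 3. The authors used HTSeqGenie, which runs GSNAP, on NCBI build 37 of the mouse, and deposited a raw count per gene of reads that align once and fall in its exons (tool versions are not given in the sources used here). Sequencer, read length and RNA input are stated differently in the labels and in the study's methods. The authors also deposited RPKM, the count scaled to exonic length and library total, used here only to compare levels between genes. The library kit does not mark strand. Of 36528 identifiers 31049 matched a RefSeq symbol (GRCm38.p6).

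Genes with more than 10 reads in at least 4 samples (15521) were fitted over all 18 samples in edgeR 4.0.16 under R 4.3.3 (TMM, glmQLFit, glmQLFTest, two-sided), and p-values were adjusted by Benjamini-Hochberg over all tested genes. Genes were called at an adjusted p below 0.05, and also with the study's cut-offs of 2-fold and 1.5-fold. Errors are SE of the log2 fold change from the F statistic, or SD of CPM over 3 samples. Floors of 3 reads cover counting error only. Exact permutation of 3 against 3 samples cannot go below p = 0.1, so all p-values come from the edgeR model. The members and lists were chosen with earlier results of these data known. Values in every sample are given for members called with more than a 1.5-fold change by TWEAK or NIK SMI1, and others serve as examples of their role. Marker lists cover epithelium, proximal tubule, leukocytes, endothelium, fibroblasts, islets and sex-linked RNA. Alternatives were DESeq2 1.42.0, its size factors in edgeR, no filter, filterByExpr, each time point alone, fold cut-offs, leaving out each sample, and 1 added after seeing the data. The scripts were tested on simulated data. Values of 1 gene of the pathway list are not reported here.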

Additional observations from a re-analysis of the deposited data

Results flagged for a closer look

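The effect of TWEAK on log2 expression differed between 24 h and 6 h, as tested by an interaction contrast in edgeR, for 5 of the 33 genes. The 24 h effect was higher for Ifitm3 by 0.83 ± 0.15 (SE, adjusted p = 0.000334), with effects of 0.76 and 1.60, and for Bst2 by 0.34 ± 0.06 (adjusted p = 0.000519), with effects of 0.40 and 0.74. The difference was -0.35 ± 0.08 for Ddx58 (adjusted p = 0.00638), with effects of 1.0 and 0.65, and -0.28 ± 0.05 for Samd9l (adjusted p = 0.000323), with effects of -0.21 and -0.49. For Uba7 it was -0.59 ± 0.18 (adjusted p = 0.0381), with effects of 0.34 and -0.25 that passed at neither time (adjusted p = 0.0543 and 0.129), and the call was lost without vehicle replicate 1 or 2 or TWEAK replicate 2 of 6 h, or vehicle replicate 1 or 2 or TWEAK replicate 1 or 3 of 24 h (highest adjusted p = 0.142).

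The effect of NIK SMI1 against TWEAK differed between the times for Herc6, by 0.73 ± 0.20 (adjusted p = 0.0369), with TWEAK samples at 3.35 ± 0.268 and 4.06 ± 0.906 CPM and inhibitor samples at 2.56 ± 0.213 and 5.22 ± 0.659 CPM (SD, n = 3). That call was lost without TWEAK replicate 2 or 3 or inhibitor replicate 1 or 2 of 6 h, or TWEAK replicate 1 or 2 or inhibitor replicate 2 of 24 h (highest adjusted p = 0.118). Exons of Herc6 share 1269 bases with Gm45193 on the same strand in the GENCODE M21 annotation, and those of Uba7 share 233 with Gm20661, so reads there could belong to either gene.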

How the results depend on the processing

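Of 87 called effects of single genes, 63 were called under every alternative, 24 were lost in at least 1, of which 16 only when a sample was left out, and 0 changed direction. Adding the fold cut-offs left 3 genes for TWEAK at 6 h, 5 at 24 h, 1 for NIK SMI1 at 6 h, 3 at 24 h, 1 and 2 for TWEAK with NIK SMI1 against vehicle, 1 for vehicle over time and 0 for the difference of the TWEAK effects. Leaving out 1 sample gave 13 to 16 genes for TWEAK at 6 h and 16 to 17 at 24 h, 6 to 8 for NIK SMI1 at 6 h and 7 to 14 at 24 h (14 without TWEAK with NIK SMI1 replicate 1), 6 to 8 and 9 to 12 for TWEAK with NIK SMI1 against vehicle, 9 to 13 for vehicle over time and 4 to 5 for the difference of the TWEAK effects. Against the TWEAK sample low in islet reads alone, NIK SMI1 at 24 h gave 5 genes. The difference of the NIK SMI1 effects, 1 gene, became 2 with DESeq2, 2 without a filter and 0 to 3 when a sample was left out: 0 without TWEAK replicate 2 or 3 or TWEAK with NIK SMI1 replicate 1 or 2 at 6 h, or TWEAK replicate 1 or 2 at 24 h, 2 without TWEAK replicate 3 at 24 h, and 3 without TWEAK with NIK SMI1 replicate 3 at 6 h. No paired analysis was possible because the labels give no replicate numbers. Depth limits the genes with few reads, such as Isg15, Ifit1 and Ifi44.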
